A study of Mus musculus with 6 samples.

Results

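The heat-shock and chaperonin genes of BV2 cells, an immortalised mouse microglial line that the labels give as of C57BL/6 background, were examined after exposure to human full-length apolipoprotein E4 (FL-ApoE4). They were taken by symbol from the deposited table of normalised reads: every gene named Dnaja, Dnajb, Dnajc, Hspa, Hspb, Hspd, Hspe or Hsph, Hsp or Cct followed by a number, with Tcp1, Bag3, Hsf1, Stip1, Ahsa1 and Chordc1, and without Hspa5, Hsp90b1, Dnajb9, Dnajb11, Dnajc3 and Dnajc10, which act in the endoplasmic reticulum. This gave 83 of the 40202 genes listed, and 69 of the 83 had a mean of at least 10 normalised reads over the 6 libraries and could be tested. The 3 control samples were untreated BV2 cells, and whether they received the protein's vehicle is not stated in the labels. The 3 FL-ApoE4 samples received the purchased human protein at 25 µg/ml for 5 h. The line is a single one, and the labels do not say that the replicates were separate cultures. The p-values set the difference between the groups against the spread of libraries within a group. That spread may be technical, so the p-values speak for these libraries only.

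The name cytosolic covers most of these genes but not all. Hspd1, Hspe1, Hspa9, Dnaja3, Dnajc11, Dnajc15, Dnajc19 and Dnajc30 encode mitochondrial proteins. Dnajc1, Dnajb12, Dnajb14, Hspa13, Dnajc16, Dnajc18 and Dnajc25 are linked to the endoplasmic reticulum or other membranes. These lists are examples and not complete, and Dnajc17, for instance, is a nuclear J protein. Hspb11, a ciliary transport component, and Hspbap1, a protein that binds a small heat-shock protein, share the symbols and are no chaperones.

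Chaperones bind unfolded stretches of other proteins and let them fold. HSP70 proteins do so in cycles of ATP hydrolysis that J proteins (the Dnaj genes) start and that exchange factors such as the HSP110 proteins and BAG proteins end, HSP90 acts on partly folded kinases and receptors, and the chaperonin CCT is a closed barrel of 8 kinds of subunit that folds actin and tubulin. Under heat or other protein-damaging stress the transcription factor HSF1 binds heat-shock elements in promoters and raises the inducible members, of which Hspa1a, Hspa1b, Hspb1, Dnajb1, Hsph1 and Bag3 are textbook examples.

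The promoters of the pair Hspd1 and Hspe1 and of 3 other members are shown because they carry the letters of an extended heat-shock element, and the upstream sequences of Hspa1a and Hspa1b because the copies can hardly be told apart. The element searched was GAANNTTCNNGAA on either strand, which on the other strand reads TTCNNGAANNTTC, in the 300 bases from 250 before to 50 after each RefSeq start of build GRCm38.p6. In the first 4 sequences capitals mark the match, and matches that overlap form 1 run. The shared stretch lies at chr1:55087933-55088147, plus strand, between the starts of Hspd1 and Hspe1, which point away from each other and stand 216 bases apart. The Dnajb6 element lies at chr5:29735844-29735873, plus strand, with the match starting at position -46 from the gene's start. The Hsph1 element lies at chr5:149636287-149636316, minus strand, with the match starting at position 37. The Chordc1 element lies at chr9:18292260-18292289, plus strand, with the match starting at position -4. The 250 bases before Hspa1a lie at chr17:34972157-34972406 and those before Hspa1b at chr17:34959239-34959488, both on the minus strand, and there the capitals mark the 3 bases that differ.
Hspd1 and Hspe1: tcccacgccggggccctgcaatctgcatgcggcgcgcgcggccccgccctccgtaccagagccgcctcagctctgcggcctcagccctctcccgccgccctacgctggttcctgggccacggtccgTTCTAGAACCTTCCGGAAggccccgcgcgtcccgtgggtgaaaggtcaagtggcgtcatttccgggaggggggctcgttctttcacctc
Dnajb6: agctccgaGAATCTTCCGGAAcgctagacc
Hsph1: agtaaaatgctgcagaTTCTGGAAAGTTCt
Chordc1: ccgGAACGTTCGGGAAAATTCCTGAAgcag
Hspa1a: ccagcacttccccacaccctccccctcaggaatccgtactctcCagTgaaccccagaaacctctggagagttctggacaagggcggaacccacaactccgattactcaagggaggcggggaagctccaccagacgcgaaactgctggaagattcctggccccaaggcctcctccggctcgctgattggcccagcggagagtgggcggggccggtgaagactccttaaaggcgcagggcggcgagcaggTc
Hspa1b: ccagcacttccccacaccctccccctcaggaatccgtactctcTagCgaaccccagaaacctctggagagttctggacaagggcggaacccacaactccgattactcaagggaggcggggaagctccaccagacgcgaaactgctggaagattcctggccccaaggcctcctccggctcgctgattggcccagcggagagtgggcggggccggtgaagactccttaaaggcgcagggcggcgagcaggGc

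The element's letters were in the windows of 5 of the 67 members with a RefSeq window (7.46%). Over all genes with a window the count was 179 of 27025 (0.662%), and over the tested ones the share was 0.586%. Counted by window it was 198 of 32851 (0.603%). Hspd1 and Hspe1, both among the 5, carry the same run of matches between their starts. A match is a description of the letters and not a bound site, and a window without one says nothing about HSF1. The 5 genes with a match had log2 fold changes of FL-ApoE4 over control between -0.09 (Chordc1) and 0.03 (Hspe1), with a median of -0.02.

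Each library held 45700128 to 54965393 assigned reads, so for well expressed genes the spread between libraries and not counting set the precision. The line's labelled cell type was checked with markers: 11 of 12 microglia and macrophage markers passed the filter, with summed levels of 188028 to 189177 normalised reads in controls and 202336 to 208273 with FL-ApoE4 (log2 fold change above 0 in 11 of 11, 4 with an unadjusted p under 0.05 and 0 called), while P2ry12 was listed at 0 in every library. Over all genes tested, 13.1% had an unadjusted limma p under 0.05 with the 6 libraries. Without control 1 limma called 4 of these 11 markers, where it called 4.62% of all genes. Without both libraries numbered 1, a fit chosen after the data were seen, it called 5 of the 11. These were Cx3cr1, Csf1r, Ptprc, Spi1 and Tmem119, all higher with FL-ApoE4. That fit called 12.6% of all genes, 7.02% of them in the higher direction and 5.53% in the lower. In the same order of groups the summed levels were 78.7 to 130 and 90.9 to 97.9 for 5 astrocyte markers, with Aqp4 listed at 0, and 81.6 to 87.6 and 61.2 to 80.3 for 5 neuron markers. They were 1924 to 1948 and 1944 to 2150 for 5 oligodendrocyte markers, of which Mbp gave the most, 3002 to 4765 and 4017 to 4534 for 4 endothelial markers, nearly all from Kdr, and 0.942 to 8.69 and 1.96 to 6.69 for 4 fibroblast markers. No marker list's part in the results below was tested. In these bulk samples, fewer cells with a transcript and less RNA per cell cannot be told apart.

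No heat-shock or chaperonin gene passed the test for a difference between FL-ApoE4 and control. With limma and Benjamini-Hochberg adjustment over all genes, 0 of 69 members and 0 of 14079 genes (0.0%) had an adjusted p under 0.05, and at an unadjusted p under 0.05 the counts were 0 of 69 members and 1850 genes, or 13.1%. The edgeR quasi-likelihood test likewise called 0 members and 0 genes, with 0 members and 13.1% of genes under an unadjusted p of 0.05. DESeq2 called 0 members and 390 of the 14079 genes (2.77%). Genes to which it gave no adjusted p, such as Cct6b, count there as not called. An unadjusted DESeq2 p under 0.05 was found for 1 member, Dnajb4, and for 11.9% of genes. The authors' deposited table has an adjusted p under 0.05 for 0 of 68 members that have one. Of the 12897 genes that have one, 367 (2.85%) were under 0.05. The smallest adjusted p of a member there was 0.265, for Dnajb4.

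The fold changes were small. They ran from -0.42 (Dnajb4) to 0.49 (Cct6b) on the log2(value + 1) scale, with a median of -0.02, against a median of 0.0 over all genes tested, and 24 members were above and 45 below 0, where 7085 genes were above and 6994 below. Without control 1 the split of the members was 34 above and 35 below, with a median of 0.0. The 95% interval of the fold change lay within a 1.5-fold change either way for 63 of 69 members (91.3%), against 71.1% of all genes. The 6 with wider intervals were Cct6b, Hspb6, Dnaja4, Dnajb4, Dnajc22 and Dnajc28. Of these, Dnaja4, Dnajc22, Cct6b and Dnajc28 had the lowest means of the members tested, with 12.3, 21.2, 25.2 and 26.5 normalised reads. The members and all genes were not matched for level, and the part of level in the 2 shares was not tested. These 6 were singled out after their values were seen. A p that misses the threshold does not show equal levels, and the intervals give the differences these 6 libraries still allow.

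**Figure D1:**
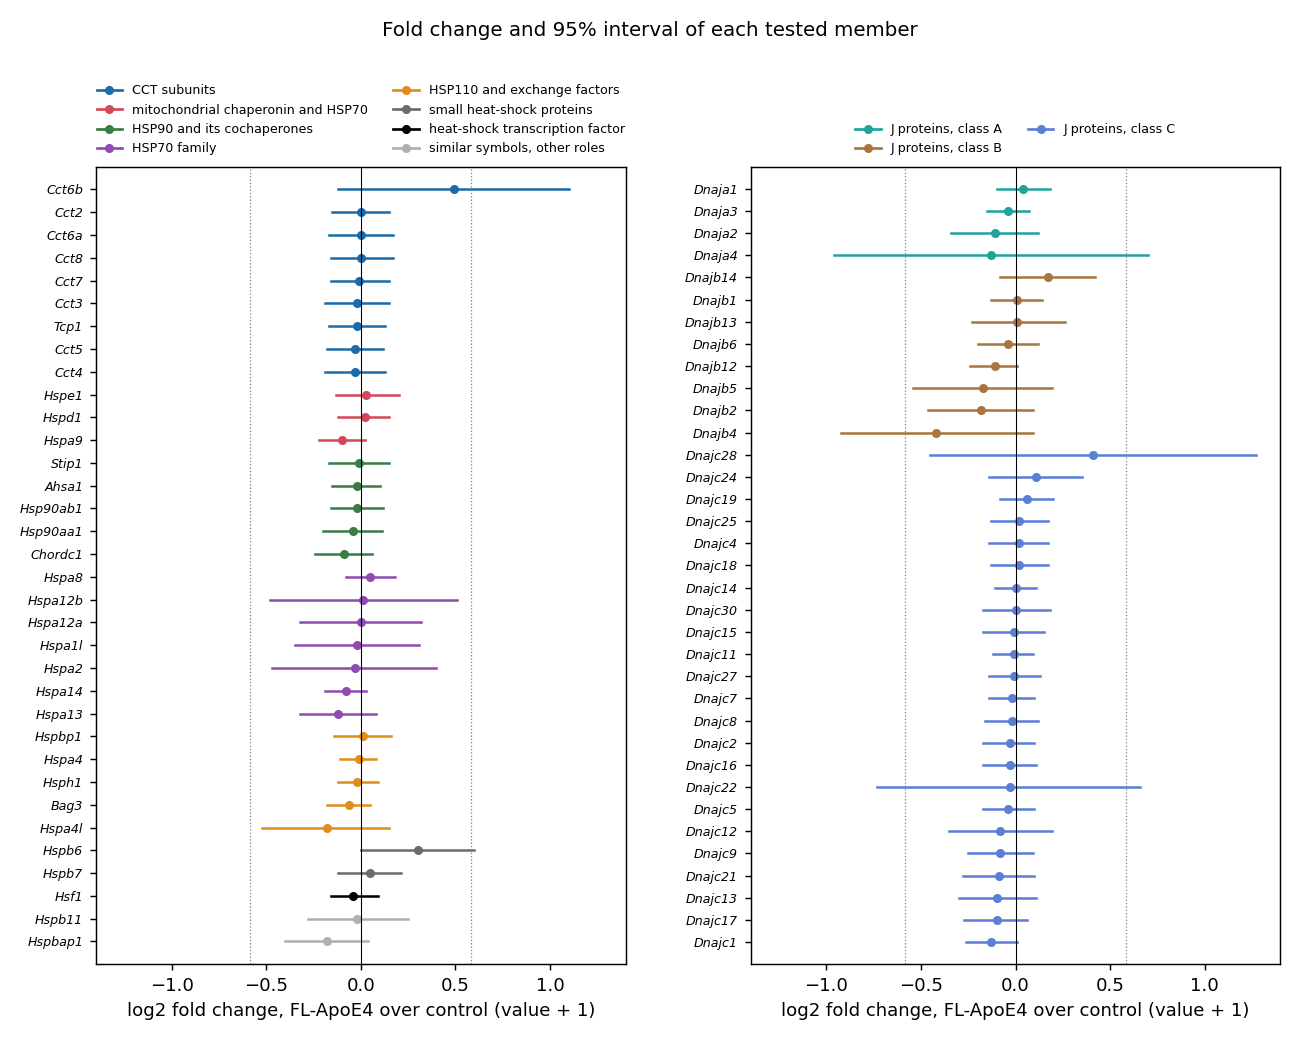
Log2 fold change of FL-ApoE4 over control on the log2(value + 1) scale for each of the 69 members tested, as points with the 95% interval of limma's moderated test as bars, coloured by role (left, chaperonins, HSP90, HSP70 and others; right, J proteins). Dotted lines mark a 1.5-fold change either way, and 63 of the 69 intervals lie between them.

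The levels of the members covered several orders of magnitude, and are compared between genes here as mean normalised reads per kilobase of the principal transcript. Hsp90ab1, the constitutive cytosolic HSP90, stood highest with 58585 reads per kilobase, followed by Hspa8, the constitutive HSP70, with 35897, and by Hspd1, the mitochondrial chaperonin, with 28299. Next on the same scale came Hspe1, the lid of that chaperonin, with 19432, Cct5 with 18347, Hspa9, the mitochondrial HSP70, with 18185, and Cct3 with 17950. Hsf1 itself stood at 1509 reads per kilobase and Dnaja4, the lowest of those tested, at 4.08. Of the 50-base stretches of Dnaja4, 42.7% also occur in transcripts of Wdr61, so its level is uncertain. All members together took 1.86%, 1.76% and 1.78% of assigned reads in controls 1, 2 and 3, and the same 3 shares, 1.86%, 1.76% and 1.78%, in FL-ApoE4 libraries 1, 2 and 3.

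**Figure D2:**
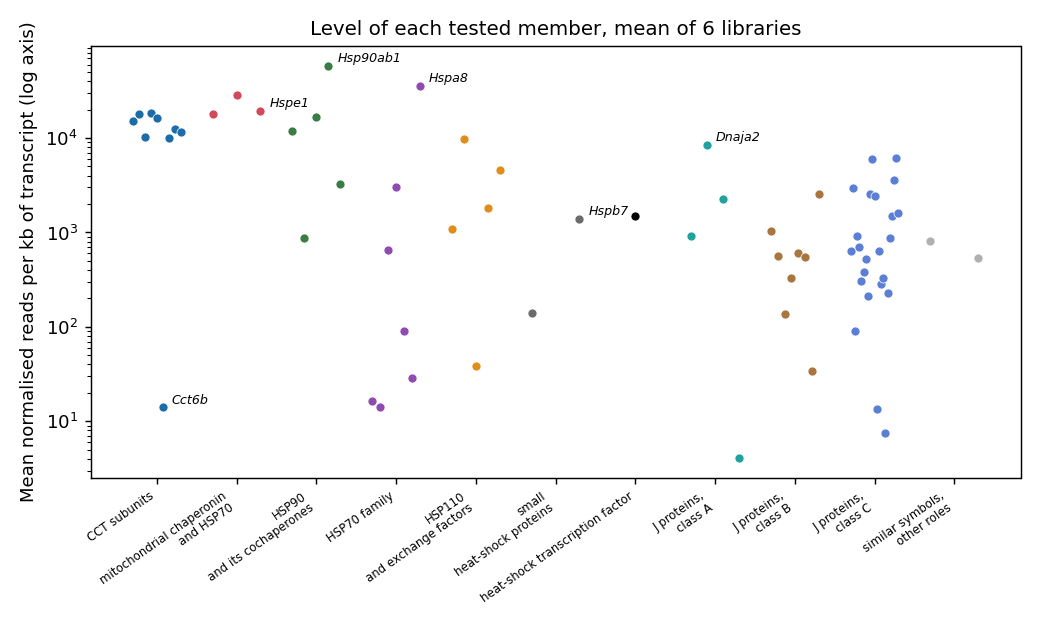
Mean of the 6 libraries in normalised reads per kilobase of principal transcript, on a log axis, for each of the 69 members tested, arranged by role with the genes of a role in alphabetical order. Hsp90ab1 is highest with 58585 and Dnaja4 lowest with 4.08.

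The subunits of CCT lay at nearly the same level in both groups. The 8 main subunits had fold changes between -0.03 and 0.00 on the log2 scale, with 95% intervals that together reached from -0.19 to 0.17. Without control 1, 8 of 8 were above 0, from 0.02 (Cct5) to 0.07 (Cct8), and 0 were called. Cct6a, the subunit with the most reads, had 43801, 38271 and 38613 normalised reads in the controls and 42966, 38207 and 39499 with FL-ApoE4 (log2 fold change 0.00 ± 0.07 SE, adjusted p = 0.997). In both groups replicate 1 was high and the other libraries lay close together, and the groups overlapped.

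Tcp1, which encodes CCT subunit alpha, had 30777, 26974 and 27219 normalised reads in the controls and 29206, 27064 and 27533 with FL-ApoE4 (log2 fold change -0.02 ± 0.06, adjusted p = 0.943). Its groups overlapped, again with the highest value of each group in replicate 1. Cct2 had 31552, 28039 and 28486 in the controls and 31151, 28237 and 28807 with FL-ApoE4, and Cct3 had 39290, 33787 and 34191 and then 37511, 33337 and 34801. Cct4 had 28207, 24756 and 24676 in the controls and 26454, 24050 and 25393 with FL-ApoE4, and Cct5 had 37000, 32699 and 33366 and then 35693, 32196 and 33030. In these 4 genes the libraries numbered 1 were the highest, and the order of the other libraries varied. Cct7 had 26358, 22963 and 23461 in the controls and 25443, 23248 and 23727 with FL-ApoE4. Cct8 had 32268, 27568 and 28866 in the controls and 31365, 28357 and 29128 with FL-ApoE4. These 6 subunits had adjusted p-values from 0.907 to 0.990.

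**Figure D3:**
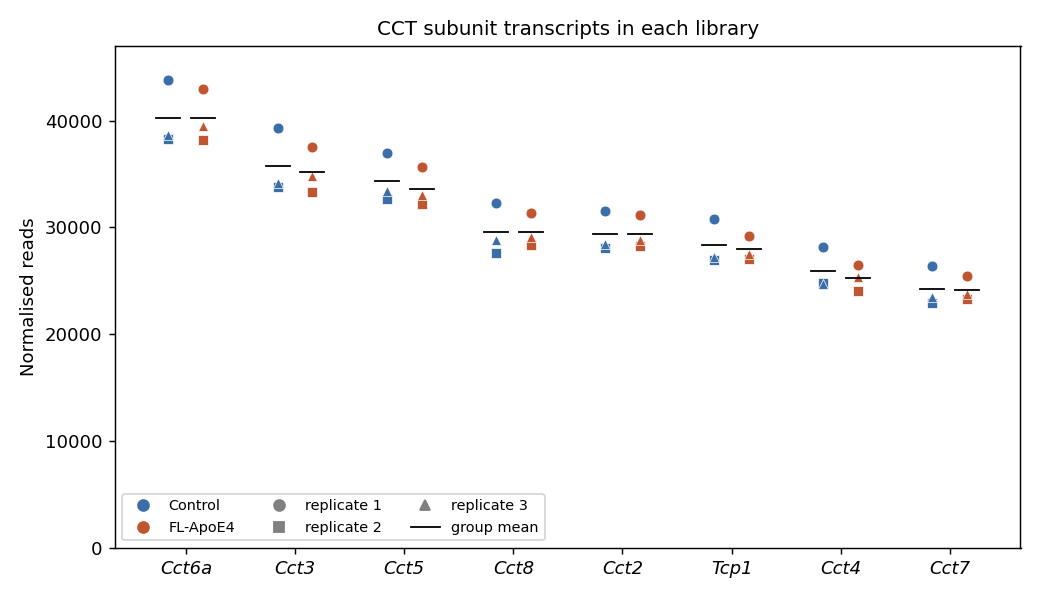
Normalised reads (linear axis from 0) of the 8 main CCT subunits in each library, with the mean of each group of 3 as a bar, marker shape for the replicate and colour for the group. In each subunit both libraries numbered 1 lie above the other 4, and the group means lie side by side.

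The subunits of the barrel kept nearly fixed proportions of its transcripts. Of the reads of the 8 main subunits, Cct6a took 16.2% to 16.5% over the 6 libraries, Tcp1 11.2% to 11.5% and Cct7 9.77% to 9.91%. Per kilobase of transcript the subunits differed more, from a median over libraries of 9666 reads for Cct7 and 10095 for Cct4 to 17449 for Cct3 and 17916 for Cct5. The ranges over libraries of Cct7 (9407 to 10798) and Cct4 (9682 to 11356) overlapped, as did those of Cct3 (16862 to 19874) and Cct5 (17375 to 19967). These levels are uncertain where sequence is shared: 15.4% of the 50-base stretches of the Cct6a transcript, and 13.9% of those of Tcp1, also occur in a transcript of another gene.

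Cct6b, the testis-linked form of the zeta subunit, was far lower, with 14.1 reads per kilobase on average. It had 23.9, 19.0 and 18.8 normalised reads in the controls and 40.2, 25.0 and 24.5 with FL-ApoE4. The groups did not overlap, although the lowest FL-ApoE4 library lay close to control 1 (log2 fold change 0.49 ± 0.26, 95% interval -0.12 to 1.10, adjusted p = 0.476). Without FL-ApoE4 library 1 the log2 fold change of Cct6b was 0.26. Cct8l1, a gene related to the theta subunit, had 0 to 2 recovered reads in any library and was not tested.

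The mitochondrial chaperonin showed the same closeness between groups. Hspd1 had 71762, 64797 and 67984 normalised reads in the controls and 72161, 66616 and 68084 with FL-ApoE4 (log2 fold change 0.02 ± 0.06, adjusted p = 0.939). Hspe1 had 15554, 14217 and 14796 in the controls and 16777, 14506 and 14390 with FL-ApoE4 (log2 fold change 0.03 ± 0.07, adjusted p = 0.907). In both genes the groups overlapped and replicate 1 was highest in each group. The ratio of Hspd1 to Hspe1 reads, which share the promoter stretch shown above, was 4.61, 4.56 and 4.59 in controls 1 to 3 and 4.30, 4.59 and 4.73 with FL-ApoE4. Of the 50-base stretches of Hspd1, 42.1% occur in transcripts of other genes, mostly its pseudogene Hspd1-ps3. For Hspe1 the share is 22.8%, mostly with AC117239.2, so both levels and their ratio are uncertain.

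Hspa9, the mitochondrial HSP70 that pulls proteins through the inner membrane, was 1 of the 3 members of lowest p among those lower with FL-ApoE4. It had 60385, 55944 and 55828 normalised reads in the controls and 53992, 52297 and 54229 with FL-ApoE4. All 3 FL-ApoE4 libraries lay below all 3 controls, a mean of 53506 ± 1054 against 57386 ± 2598 (SD, n = 3 each), but the difference missed the threshold with limma (log2 fold change -0.10 ± 0.05, 95% interval -0.22 to 0.02, adjusted p = 0.451). Without control 1 the log2 fold change of Hspa9 was -0.06.

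Of the HSP90 group, 5 of 5 members had log2 fold changes below 0, between -0.09 and -0.01, and 0 passed the test. The direction depended on single libraries. Without control 1, 3 of the 5 were above 0 (Hsp90aa1 0.02, Hsp90ab1 0.03 and Stip1 0.05), and Ahsa1 (-0.01) and Chordc1 (-0.03) stayed below. Stip1 was also above 0 without FL-ApoE4 library 1 (0.02), and Ahsa1 without FL-ApoE4 library 2 (0.01). Chordc1 stayed below 0 with each library left out in turn. Hsp90ab1 had 158277, 140116 and 147094 normalised reads in the controls and 152316, 144446 and 143563 with FL-ApoE4 (log2 fold change -0.02 ± 0.06, adjusted p = 0.949). Hsp90aa1, the inducible form, had 60661, 52283 and 54771 and then 56406, 52230 and 54069 (log2 fold change -0.04 ± 0.07, adjusted p = 0.856). The groups of both genes overlapped, with the highest library in control 1. Hsp90ab1 had between 2.61 and 2.77 times the reads of Hsp90aa1 in every library, a ratio that is not corrected for length. Of the 50-base stretches of Hsp90aa1, 47.5% are shared with other genes, mostly the pseudogene Gm12346.

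Stip1, which hands clients from HSP70 to HSP90, had 7424, 6398 and 6728 normalised reads in the controls and 6513, 6747 and 7096 with FL-ApoE4. Ahsa1, which speeds the ATPase of HSP90, had 16501, 16029 and 16361 in the controls and 17058, 15380 and 15716 with FL-ApoE4. Chordc1, a zinc-binding partner of HSP90, had 5674, 5069 and 5014 in the controls and 5051, 4722 and 5057 with FL-ApoE4. In each of these 3 cochaperones the groups overlapped, and the adjusted p-values were 0.967, 0.908 and 0.630.

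Among the cytosolic HSP70 genes the constitutive form was abundant and the heat-inducible pair was close to undetected. Hspa8 had 90000, 81150 and 82093 normalised reads in the controls and 89233, 88304 and 84845 with FL-ApoE4, a mean of 84414 ± 4860 against 87461 ± 2313 (SD, n = 3 each). Its highest value was in control 1, the groups overlapped, and the log2 fold change was 0.05 ± 0.06 (adjusted p = 0.762). Of its 50-base stretches 39.4% are shared with other genes, mostly the pseudogene Gm15459.

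Hspa1a had 2, 4 and 0 recovered reads in the controls and 1, 0 and 0 with FL-ApoE4. Hspa1b had 1 read in control 3 and 0 in the other 5 libraries. With 3 reads or fewer in 5 of the 6 libraries for Hspa1a and in all 6 for Hspa1b, both were at or near the limit that a count of 0 allows, which is 3 reads a library, and no fold change is given. The copies share 58.8% of the 50-base stretches of Hspa1a and 62.3% of those of Hspa1b, and the 250 bases before their starts are 98.8% identical. Whether reads that fit both copies were dropped in counting is not given in the sources used here, so both levels are uncertain and were not resolved at this depth. Counting limits cover counting error only.

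The other HSP70 genes that were tested, Hspa1l, Hspa2, Hspa12a, Hspa12b, Hspa13 and Hspa14, had log2 fold changes from -0.12 to 0.01. Hspa14, a ribosome-associated HSP70, had 5447, 5472 and 5696 normalised reads in the controls and 5323, 5168 and 5199 with FL-ApoE4. Its groups did not overlap (log2 fold change -0.08 ± 0.05, adjusted p = 0.503), and it is named for that after its values were seen. Hspa1l, which is known for expression in testis, shares 71.4% of its 50-base stretches with other genes, so its 197 to 275 normalised reads are uncertain.

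The HSP110 proteins and exchange factors held 5 members, of which 1 had a log2 fold change above 0. Hspa4 had 46619, 45765 and 45202 normalised reads in the controls and 45303, 45053 and 45860 with FL-ApoE4 (log2 fold change -0.01 ± 0.04, 95% interval -0.11 to 0.08). Hsph1, a stress-inducible HSP110, had 17839, 17172 and 18023 in the controls and 17234, 17353 and 17832 with FL-ApoE4 (log2 fold change -0.02 ± 0.04, 95% interval -0.12 to 0.09). Both genes overlapped between groups, and their 6 libraries lay closer together than those of CCT. Bag3, an HSF1 target that links HSP70 to selective autophagy, had 2915, 2834 and 2766 in the controls and 2663, 2718 and 2768 with FL-ApoE4, with an overlap of only the highest treated and the lowest control library (log2 fold change -0.06 ± 0.05, adjusted p = 0.653). Hspa4l and Hspbp1 had log2 fold changes of -0.18 ± 0.14 and 0.01 ± 0.06.

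Of the 7 small heat-shock proteins, which hold unfolding proteins without using ATP, 2 were tested. Hspb6 had 149, 178 and 196 normalised reads in the controls and 222, 220 and 200 with FL-ApoE4. The groups did not overlap, although control 3 and FL-ApoE4 library 3 lay close together, and Hspb6 had the smallest p of all 69 members (log2 fold change 0.30 ± 0.13, 95% interval 0.00 to 0.60, unadjusted p = 0.0503, adjusted p = 0.381). Without control 1 its log2 fold change was 0.19. Hspb7, a form best known from muscle, was the more abundant with 3829, 4129 and 3517 reads in the controls and 3989, 4063 and 3769 with FL-ApoE4, and its groups overlapped. Hspb1, the classic inducible small heat-shock protein, had 4, 1 and 1 recovered reads in the controls and 2, 2 and 4 with FL-ApoE4, and 50.1% of its 50-base stretches are shared, mostly with the pseudogene Hsp25-ps1. Hspb9 had 3 to 8 recovered reads per library. Hspb2, Hspb3 and Hspb8 were listed at 0 in all 6 libraries.

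The J proteins made up 41 of the 83 genes, and 35 were tested, 12 with a log2 fold change above 0 and 23 below. Dnaja1, a main cytosolic partner of HSP70, had 5312, 4981 and 4928 normalised reads in the controls and 5541, 5030 and 5102 with FL-ApoE4 (log2 fold change 0.04 ± 0.06, adjusted p = 0.835). Dnajb1, the J protein that HSF1 induces most typically, had 2997, 3243 and 3155 in the controls and 3309, 3058 and 3080 with FL-ApoE4 (log2 fold change 0.01 ± 0.06, adjusted p = 0.974). Both genes overlapped between groups, and FL-ApoE4 library 1 was the highest library in each. Dnaja1 shares 20.6% of its 50-base stretches with other genes, so its level is uncertain.

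Dnajb4, a close relative of Dnajb1, had the most negative fold change of the members and is named after its values were seen. It had 2227, 1309 and 1188 normalised reads in the controls and 1172, 1048 and 1188 with FL-ApoE4. Control 1 alone stood high, and control 3 and FL-ApoE4 library 3 were level, so the groups overlapped. The log2 fold change was -0.42 ± 0.22 with all libraries (95% interval -0.92 to 0.09, adjusted p = 0.467) and -0.14 without control 1 (adjusted p = 0.402). The authors' deposited table gives a log2 fold change of -0.47 and an adjusted p of 0.265.

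Dnajb12 and Dnajc1, membrane J proteins of the endoplasmic reticulum, were with Hspa9 the members of lowest p in the lower direction. Dnajb12 had 1864, 1788 and 1771 normalised reads in the controls and 1661, 1685 and 1664 with FL-ApoE4 (log2 fold change -0.11 ± 0.05, adjusted p = 0.425). Dnajc1 had 3915, 3649 and 3510 in the controls and 3272, 3385 and 3483 with FL-ApoE4 (log2 fold change -0.13 ± 0.06, adjusted p = 0.425; -0.08 without control 1). Neither gene overlapped between groups, and neither passed the test.

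Dnajb14, a further membrane J protein, was with Hspb6 and Cct6b 1 of the 3 members of lowest p in the higher direction. It had 2577, 3103 and 3064 normalised reads in the controls and 2860, 3598 and 3403 with FL-ApoE4 (log2 fold change 0.17 ± 0.11, adjusted p = 0.547). Its lowest library in each group was replicate 1. The groups overlapped only through FL-ApoE4 library 1, which lay below controls 2 and 3. With each library left out in turn its log2 fold change ran from 0.09 (without control 1, adjusted p = 0.668) to 0.27 (without FL-ApoE4 library 1, adjusted p = 0.413), and it was 0.10 without FL-ApoE4 library 2. Without both libraries numbered 1, a choice made after the data were seen that leaves 2 libraries a group, Dnajb14 was called higher with limma (log2 fold change 0.18, adjusted p = 0.0148). In the same fit Dnajc9, a J protein that binds histones, was called lower (log2 fold change -0.17, adjusted p = 0.0355). Dnajc9 had 2558, 2891 and 2717 reads in the controls and 2746, 2423 and 2554 with FL-ApoE4, with overlap over all 6 libraries (log2 fold change -0.08 ± 0.07, adjusted p = 0.693). These were 2 of 69 members (2.9%), where 1767 of 14079 genes (12.6%) were called without those libraries, 7.02% higher and 5.53% lower. At an unadjusted p under 0.05 that fit held 5 of 69 members, or 7.25%, against 25.8% of genes. Without control 1 alone, limma called 0 of 69 members and 651 genes (4.62%), and 0 members and 19.0% of genes had an unadjusted p under 0.05.

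Dnajb6, a J protein known to hold back aggregation of polyglutamine proteins and a carrier of the element shown above, had 4651, 4015 and 3977 reads in the controls and 4088, 4083 and 4079 with FL-ApoE4. The 3 treated libraries were nearly level, control 1 stood above them and controls 2 and 3 just below (log2 fold change -0.04 ± 0.07, adjusted p = 0.863). Dnajb6 shares 21.0% of its 50-base stretches with other genes, so its level is uncertain. The remaining J proteins tested had log2 fold changes from -0.18 (Dnajb2) to 0.41 (Dnajc28), and without control 1 these ends were -0.08 for Dnajb2 and 0.00 for Dnajc28. Dnajc28 had 11.9 to 34.3 normalised reads a library. Dnajb3, Dnajb7 and Dnajb8 were listed at 0 in all libraries, and Dnajc5b, Dnajc5g and Dnajc6 had 5 recovered reads or fewer in each.

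Hsf1, the transcription factor of the heat-shock response, had 3095, 3150 and 3309 normalised reads in the controls and 3217, 3016 and 3087 with FL-ApoE4. The groups overlapped, and its log2 fold change was -0.04 ± 0.05 (95% interval -0.16 to 0.09, adjusted p = 0.847). Its activity is set largely after translation, so its transcript level is no measure of it.

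Separation of the groups without overlap was seen in 8 of 69 members (11.6%), against 3087 of 14079 genes (21.9%). Cct6b and Hspb6 were higher with FL-ApoE4 in all libraries, 2.9% of members against 11.1% of genes. Dnaja3, Dnajb12, Dnajc1, Dnajc17, Hspa14 and Hspa9 were lower in all, 8.7% of members against 10.9% of genes. Dnaja3 (log2 fold change -0.04 ± 0.05), a mitochondrial J protein, and Dnajc17 (-0.10 ± 0.07), a nuclear one, are named after their values were seen.

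**Figure D4:**
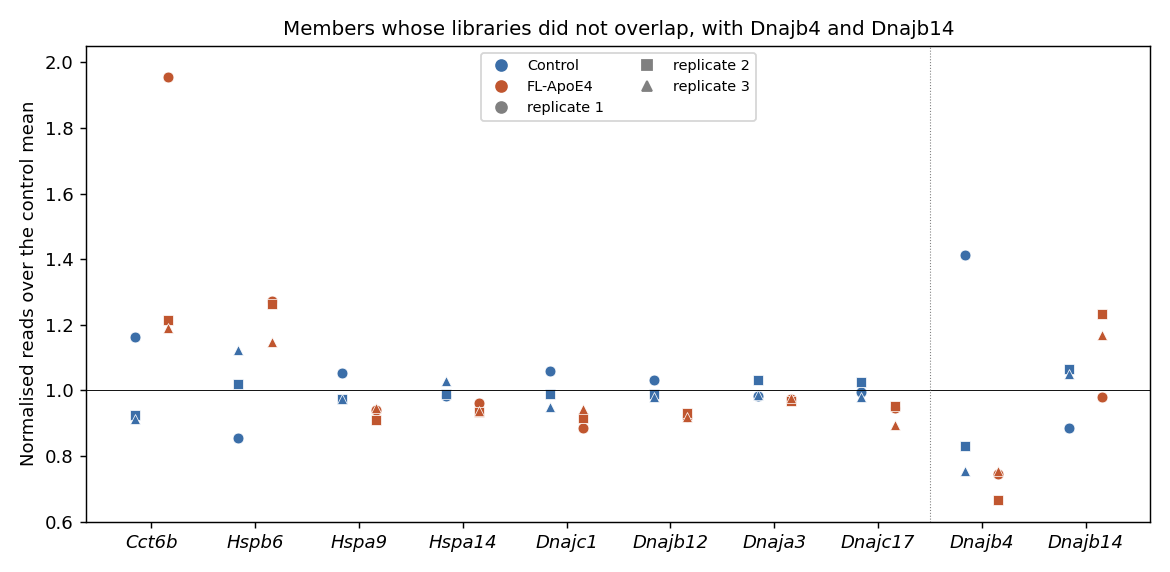
Normalised reads of each library divided by the control mean of the gene (linear axis from 0.6), for the 8 members whose groups did not overlap and, right of the dotted line, Dnajb4 and Dnajb14, whose groups did. Colour gives the group and shape the replicate; control 1 alone is high in Dnajb4, and FL-ApoE4 library 1 is high in Cct6b.

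A difference between libraries that was not one between groups ran through many members. In 25 of 69 members (36.2%) control 1 and FL-ApoE4 library 1 were the 2 highest of the 6 libraries, against 1995 of 14079 genes (14.2%), and in 7 members (10.1%) they were the 2 lowest, against 15.2% of genes. The 25 included 8 of 8 main CCT subunits, with Hsp90aa1, Hsp90ab1, Ahsa1, Hspa8, Hspd1 and Hspe1. Control 1 lay above the mean of the other controls by a median of 0.19 on the log2 scale for the main CCT subunits, and FL-ApoE4 library 1 above its own group by 0.13, where the medians over all genes were 0.0 and 0.0. Both libraries lay above their own group for 35 of 69 members (50.7%) and 29.1% of all genes.

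The reads of the 8 main subunits made up 0.508%, 0.464% and 0.469% of controls 1, 2 and 3 and 0.510%, 0.461% and 0.475% of FL-ApoE4 libraries 1, 2 and 3. The shift between libraries was thus larger than any difference between the groups of these genes. The principal transcripts of the 25 members had a median length of 2330 bases, those of the other 44 members 3014 bases and those of all genes 2863 bases. These libraries had 48784016 and 45700128 assigned reads, the lowest of each group, and whether they share a culture or a preparation day is not given in the labels. The part of depth and length in the pattern was not tested, and the pattern was chosen after the values were seen.

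**Figure D5:**
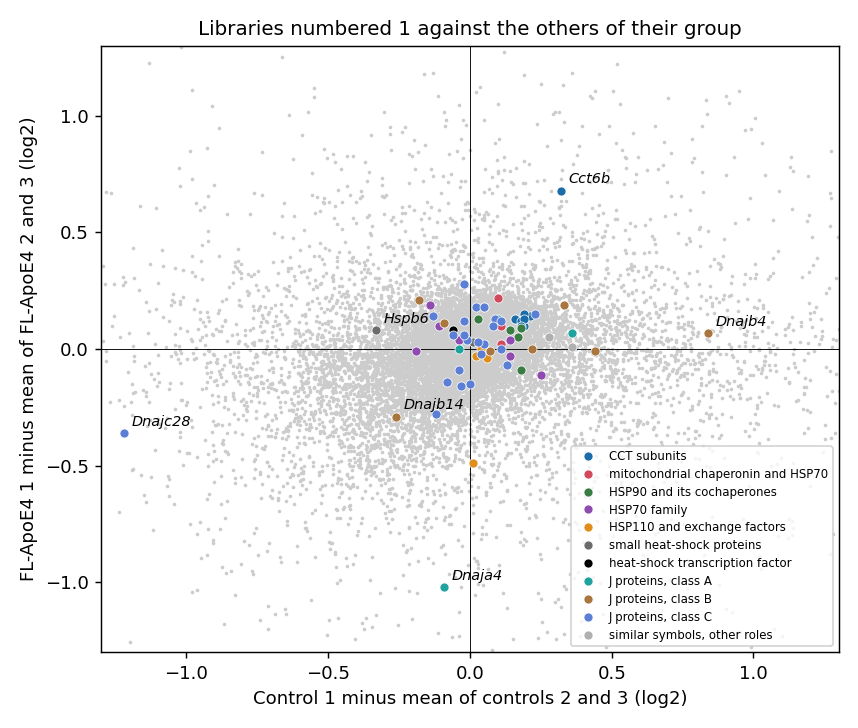
Difference of control 1 from the mean of controls 2 and 3 (horizontal) and of FL-ApoE4 library 1 from the mean of FL-ApoE4 libraries 2 and 3 (vertical), both in log2 units, for the 69 members by role (coloured) and all 14079 genes tested (grey, 320 of them outside the axes). Of the members 35 lie in the upper right part, with the main CCT subunits in a tight group there and Dnajb4 far to the right.

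Among genes of the same machinery that the rule does not take, 0 passed the test with all 6 libraries. Of 23 further cochaperones, 23 were tested and 0 had an unadjusted p under 0.05, with a median log2 fold change of -0.01; Unc45a, a myosin chaperone (log2 fold change -0.12), and Bag5 (-0.08) had the lowest p-values. Of 10 prefoldin and phosducin-like cofactors of CCT, 9 were tested, with a median of -0.02 and 1 unadjusted p under 0.05, that of Pdcl3. Pdcl3, which works with CCT in tubulin and actin folding, had 4923, 4970 and 4747 normalised reads in the controls and 4636, 4344 and 4085 with FL-ApoE4 (log2 fold change -0.17 ± 0.06, adjusted p = 0.306). Its groups did not overlap. Pdcl (log2 fold change -0.07) and Pfdn5 (0.06) came next by p.

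Of 14 genes of the HSF family or linked to HSF1, 12 were tested, with a median log2 fold change of -0.08 and 1 unadjusted p under 0.05. That gene, Hmox1, the heme oxygenase that oxidative stress induces, had 173807, 114731 and 95745 normalised reads in the controls and 70386, 69084 and 89015 with FL-ApoE4. The groups did not overlap, control 1 stood far above the other controls, and the difference missed the threshold (log2 fold change -0.71 ± 0.21, adjusted p = 0.228). Without control 1 it was -0.47 (adjusted p = 0.0574). Hsbp1 (0.10) and Hsf2 (-0.14) followed by p.

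Of 10 mitochondrial chaperones and proteases, 10 were tested, with 8 below 0, a median of -0.04 and 1 unadjusted p under 0.05, and Clpx (log2 fold change -0.14, adjusted p = 0.358), Clpb (-0.09) and Afg3l2 (-0.08) had the lowest p-values. The 6 endoplasmic reticulum chaperones left out by the rule had log2 fold changes from -0.06 (Hspa5, adjusted p = 0.785) to 0.05 (Dnajc3, adjusted p = 0.728). A further 11 folding factors of that compartment ran from -0.02 to 0.09, with Sdf2l1 (0.09), Calr (0.05) and Manf (0.07) of lowest p. With all 6 libraries, 13.1% of all genes tested had an unadjusted limma p under 0.05. Without both libraries numbered 1, a fit chosen after the data were seen, limma called 3 genes of these lists lower and 0 higher. Pdcl3 and Hmox1 were among the 3 (adjusted p = 0.00819 and 0.0151). That fit called 5.53% of all genes lower and 7.02% higher.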

How the data were processed

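Total RNA of 3 untreated and 3 FL-ApoE4 samples was sequenced from directional libraries, per the labels' protocols. The submitters' processing notes list HISAT2 2.2.1, HTSeq, FastQC 0.11.8, DESeq2 1.30.1 and the build GRCm39. Neither their settings nor the strand used in counting are known from these sources, so antisense and overlapping genes are uncertain. The deposited normalised signal of each gene was a whole multiple of its library's smallest value (tolerance 0.01, 100% of values), and division gave back whole reads. The authors' deposited table of statistics holds, per gene, the log2 fold change with its SE, a test score (their Wald statistic), the p-value and the adjusted p-value; it is quoted only where named.

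Since normalised values are not counts, genes with a mean of at least 10 (14079) were tested with limma 3.58.1 in R 4.3.3, two-sided, on log2(value + 1), a scale that understates changes of low genes. The variance followed a trend with the mean, p-values were adjusted by Benjamini-Hochberg, and the threshold was 0.05. The recovered reads were also tested with edgeR 4.0.16 (quasi-likelihood, TMM) and DESeq2 1.42.0. Other alternatives changed the pseudocount, filter or scaling, left out a library or added a replicate block. The fits were tested on simulated data. There every gene had the same spread beyond counting and no library departed from its group. That test therefore cannot speak to the departure of the libraries numbered 1.

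The members, gene lists, tests and named genes were chosen with earlier results of these data known. Named genes were the classic heat-shock and CCT genes, the 3 members of lowest p in each direction and up to 3 genes of lowest p in each further list, of which 1 gene is not reported here; Dnajb4, Dnajb6, Dnajc9, Hspa14, Hspb7, Dnaja3 and Dnajc17 were named after their values were seen, as were members given for a range, a count or a level. Transcript lengths and shared 50-base stretches came from GENCODE M21 (GRCm38), another build than the authors', and sequences and coordinates from RefSeq GRCm38.p6, which gave windows for 67 of 83 members.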

Additional observations from a re-analysis of the deposited data

How the results depend on the processing

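The count of 0 members past the threshold held under 17 of 18 alternatives; the exception, without both libraries numbered 1, gave 1 higher and 1 lower member and 3 lower genes of the further lists. Over all genes the count of 0 became 1 with no filter beyond a mean above 0, 390 with DESeq2 and 1767 without both libraries numbered 1, and ran from 0 to 651 with each library left out in turn, 651 being without control 1 and 1 without FL-ApoE4 library 2; the cause was not tested.

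Of 593 fold changes of 33 named members over 18 alternatives, 545 kept their sign and 48, in 19 genes, changed it, none of them called and none above 0.08 in size on the log2 scale. With DESeq2 these were Cct2, Cct6a and Cct8 (each 0.00), with equal totals Hspa4 (0.00), Stip1 (0.00) and Cct7 (0.01). Without both libraries numbered 1 they were Hsp90ab1 (0.00), Hspe1 (-0.01), Dnajb1 (-0.06), Stip1 (0.08), Tcp1 (0.01), Cct3 (0.00), Cct7 (0.02) and Dnajb6 (0.03). With each library left out in turn, the log2 fold change ran from -0.09 to 0.02 for Hsp90aa1, -0.06 to 0.03 for Hsp90ab1, -0.02 to 0.05 for Hspd1, -0.04 to 0.07 for Hspe1, 0.00 to 0.08 for Dnaja1, -0.03 to 0.03 for Dnajb1, -0.06 to 0.05 for Stip1, -0.07 to 0.01 for Ahsa1, -0.05 to 0.04 for Tcp1, -0.08 to 0.03 for Dnajb6 and -0.01 to 0.10 for Hspb7. In the CCT subunits it ran from -0.04 to 0.06 for Cct2, -0.07 to 0.05 for Cct3, -0.06 to 0.03 for Cct4, -0.07 to 0.02 for Cct5, -0.05 to 0.06 for Cct6a, -0.04 to 0.06 for Cct7 and -0.04 to 0.07 for Cct8.

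The libraries numbered 1 deviated together weakly across 14079 genes (Pearson r of deviations from the group mean 0.13), those numbered 2 and 3 less (0.07 and -0.03), and control 3 correlated better with FL-ApoE4 library 2 (0.16), so the numbers were not taken to pair the samples. With the replicate block the count was 0 for members and 0 for all genes. With 3 libraries a group, 1 of which departs in many genes, differences smaller than the printed intervals may go undetected. For genes at or under 3 reads depth is a limit, and for Hspa1a and Hspa1b shared sequence is a further one.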
